A study of Mus musculus with 16 samples.

Results

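The aminoacyl-tRNA synthetases were followed as a family of 36 genes, 20 for the cytosolic enzymes and 16 for the mitochondrial ones. The genes were listed by name rather than ranked by a measured value, although earlier results of these data were known. Of these, 34 had a probe with a single gene symbol and could be measured, 18 cytosolic and 16 mitochondrial, among 16427 genes tested. The probe that holds Aars is shared with Exosc6 and Dars had no probe, so neither is reported. Mars stands in the probe table as Mars1, and Iars was the only member with 2 probes.

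Each of these enzymes joins an amino acid to the tRNA that carries its anticodon, which is the step that fixes the genetic code. Cytosolic and mitochondrial protein synthesis use mostly separate synthetases, both encoded in the nucleus, although Gars and Kars each serve both compartments and are counted here as cytosolic. Several cytosolic enzymes are bound into a multi-synthetase complex together with the scaffold proteins Aimp1, Aimp2 and Eef1e1. Naive T cells are small and make little protein, and activation makes them grow, which raises their need for charged tRNA.

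The levels were measured in CD4+CD62LhiCD25- T cells sorted from the spleen and lymph nodes of B6 mice, either wild type (WT) or knockout (KO) for DEC1, the transcription factor that Bhlhe40 encodes. The cells were kept at 1000000 per ml in DMEM with 10% serum for 24 h and stimulated with latex beads coated with anti-CD3, an antibody that triggers the T cell receptor complex, or with anti-CD3 and anti-CD28, which adds costimulation through CD28. There were 4 arrays in each of the 4 groups, called WT_CD3, WT_CD3CD28, KO_CD3 and KO_CD3CD28 here. Replicates carry the numbers 1 to 4 in the labels, which do not say whether each came from a mouse of its own. The p-values therefore reflect only the variation among these arrays, which may be technical in part. Xist was high on some arrays of each group and not on others, so the arrays of a group did not all measure the same cells. No unstimulated group was analysed here. The deleted part of the gene, and whether the deletion is limited to T cells, are not given in the sources used here.

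All values are log2 signals, and array medians over 35556 probes ran from 6.64 to 6.97. Bhlhe40 itself averaged a log2 level of 5.53 (SD 0.32) on the KO_CD3 arrays and 5.88 (SD 0.14) on the KO_CD3CD28 arrays, where wild-type cells showed 7.56 (SD 0.42) without anti-CD28 and 9.51 (SD 0.71) with it, and the genotypes did not overlap, so the libraries matched their genotype labels. The mean of 9 T cell markers was 10.94 to 11.60 on every array. All 34 synthetase probes lay between the 43.1 and 98.4 percentiles of their array. A percentile alone does not place a probe above background. In these sorted T cells the B cell markers Pax5 and Cd79b read 6.54 to 6.95 and 6.83 to 7.46, although the other B cell markers reached lower levels. Aars2 (6.52 to 6.98), Pars2 (6.68 to 7.39) and Ears2 (7.07 to 7.41) read in that range, and Vars2 (7.26 to 7.56) did on most arrays. These members may therefore be near background. Replicates 1 and 2 and replicates 3 and 4 differed across the genome, as described with the results they touch, and Xist was high on 6 arrays (replicate 1 of WT and replicates 2 and 4 of KO under both stimuli). A term for high Xist changed the call of 0 members.

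For 27 of the 36 genes RefSeq gave the sequence around the start of transcription, 250 bases before to 50 after it (build GRCm38.p6). These are shown because most cytosolic members moved together and because the study removed a DNA-binding factor. The E-box CACGTG, which DEC1 and MYC bind, was present in 5 of the 27 (18.5%, Aars, Ears2, Farsb, Iars and Tars), against 8.09% of the 27025 genes in the table. The core TGATGNAA of the element bound by ATF4, a factor that induces synthetase genes when amino acids are short, was found on either strand in 5 as well (18.5%, Aars, Gars, Iars, Tars and Yars), against 4.51% of genes. All 5 were among the 13 cytosolic genes with a sequence, and 0 of the 14 mitochondrial genes held it. In the 250 bases before the start alone each motif was in 3 members (11.1%), against 6.86% of genes for CACGTG and 3.91% for TGATGNAA. A match says only that these letters are present.

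The TGATGNAA matches of the measured members are printed on the strand of the gene, 5′ to 3′, with the match in capitals and 10 bases on either side. The printed stretches lie at chr6:55037961-55037988, plus strand (match begins 30 bases before the start), chr13:49682127-49682154, plus strand (7 bases after it), chr15:11399656-11399683, minus strand (15 before) and chr4:129189896-129189923, plus strand (3 after).
Gars: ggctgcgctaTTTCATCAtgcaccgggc
Iars: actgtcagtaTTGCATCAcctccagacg
Tars: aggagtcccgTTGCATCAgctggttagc
Yars: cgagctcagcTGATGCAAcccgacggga
In Gars, Iars and Tars the match reads on the opposite strand, and in Yars on the strand of the gene.

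The CACGTG matches are printed in the same way and lie at chr1:78488921-78488946, minus strand (39 bases before the start), chr13:49682051-49682076, plus strand (69 before), chr15:11399624-11399649, minus strand (19 after) and chr7:122067050-122067075, minus strand (21 after).
Farsb: agacaggcatCACGTGagacagccca
Iars: ccaatcgccaCACGTGttgtttgtag
Tars: cgcctgtggcCACGTGgcgcacgcgc
Ears2: cgaaggagccCACGTGtgtgtttcta
The 250 bases before the start are given for Iars, which holds the E-box there (chr13:49681880-49682129, plus strand), and for Yars2, the member with the largest CD28 difference, which holds neither motif (chr16:16302715-16302964, plus strand).
Iars: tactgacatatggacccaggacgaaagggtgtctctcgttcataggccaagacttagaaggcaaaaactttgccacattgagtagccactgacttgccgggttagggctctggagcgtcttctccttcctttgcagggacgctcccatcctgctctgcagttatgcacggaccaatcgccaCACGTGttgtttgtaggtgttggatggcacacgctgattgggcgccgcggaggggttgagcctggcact
Yars2: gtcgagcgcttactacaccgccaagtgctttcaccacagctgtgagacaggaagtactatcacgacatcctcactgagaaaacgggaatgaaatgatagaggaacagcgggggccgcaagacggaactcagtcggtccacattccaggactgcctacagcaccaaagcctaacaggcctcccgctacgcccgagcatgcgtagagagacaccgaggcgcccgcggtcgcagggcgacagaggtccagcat
The capitals in Iars mark CACGTG.

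The first comparison asked what CD28 costimulation added to anti-CD3 in wild-type cells. Synthetase transcripts rose: 19 of 34 members were higher at a Benjamini-Hochberg adjusted p under 0.05 (limma, over all genes tested) and 0 were lower, where 16% of all genes tested were higher and 13% lower. The median difference of the 34 was 0.46 on the log2 scale against -0.03 over all genes. Of the 18 cytosolic members 13 were higher (median 0.51), and of the 16 mitochondrial members 6 (median 0.16). In 17 members every array with anti-CD28 exceeded every array without it, which held for 16.2% of all genes. In bulk RNA such as this, a change in the share of responding cells and a change in RNA per cell cannot be told apart.

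**Figure D1:**
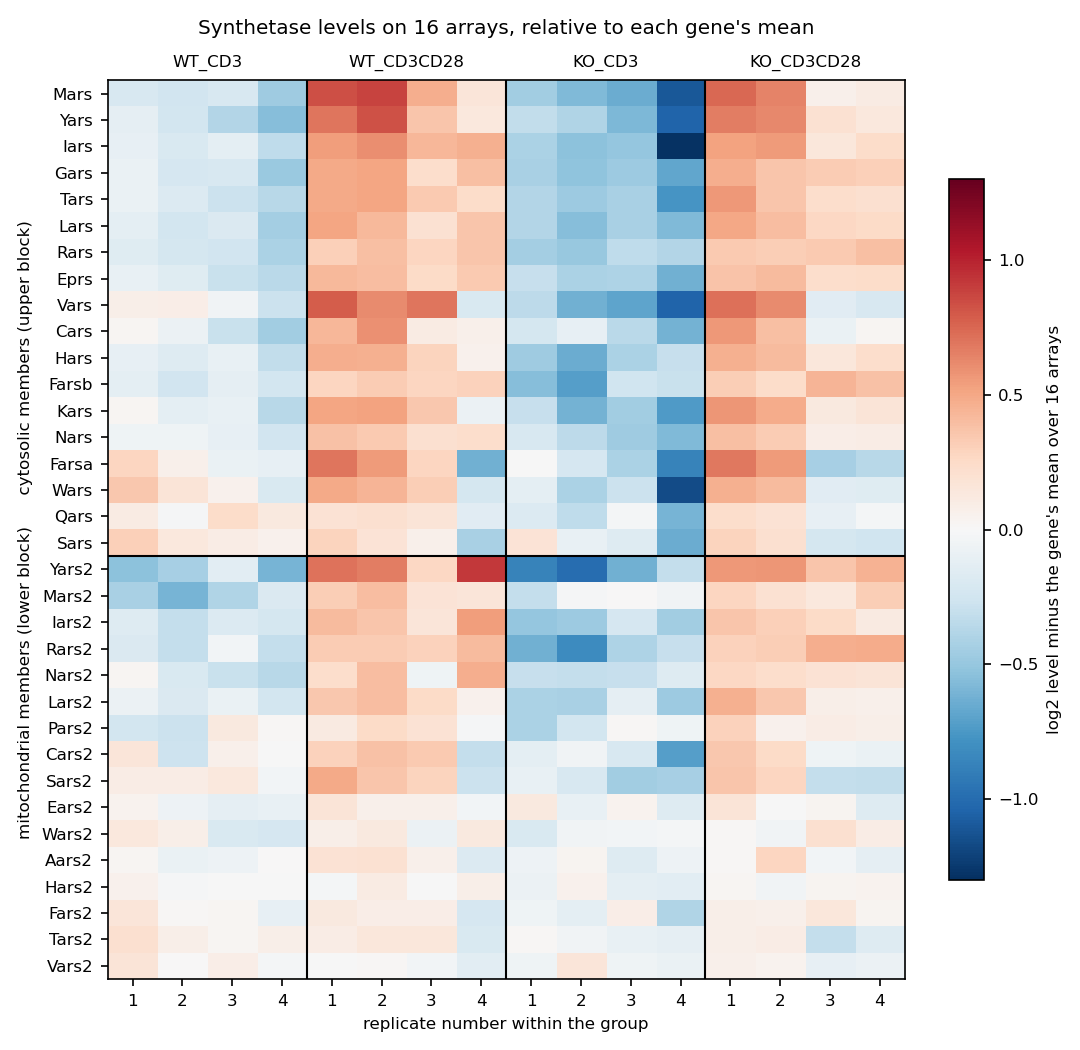
Log2 level of each of the 34 measured synthetases (rows) on each of the 16 arrays (columns, grouped, with the replicate number below), minus the mean of that gene over the 16 arrays; red is above the mean and blue below. The upper block of 18 cytosolic members is mostly red in WT_CD3CD28 and KO_CD3CD28, and the column of KO_CD3 replicate 4, with a cytosolic mean of 9.62, is the bluest there.

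The enzymes bound in the multi-synthetase complex rose almost throughout. Of its 7 measured enzymes 6 were higher, with a median of 0.60. Mars, the enzyme that charges both initiator and elongator methionine tRNA, read 9.12, 9.08, 9.12 and 8.86 in WT_CD3 replicates 1 to 4 and 10.16, 10.20, 9.80 and 9.48 in WT_CD3CD28. The groups did not overlap, and the log2 difference was 0.86 (SE 0.18, adjusted p = 0.00151). Iars, for isoleucine, read 11.55, 11.46, 11.53 and 11.33 under anti-CD3 and 12.20, 12.26, 12.09 and 12.12 with anti-CD28, a difference of 0.70 (SE 0.15, adjusted p = 0.0018). Its other probe differed by 0.73 (SE 0.18, adjusted p = 0.00534). Lars, the leucine enzyme that also acts as a leucine sensor for mTORC1, differed by 0.62 (SE 0.09), Rars, for arginine, by 0.60 (SE 0.07), and Eprs, a fused enzyme for glutamate and proline, by 0.57 (SE 0.09), all with groups that did not overlap. Kars, for lysine, was the weakest of the called members of the complex at 0.46 (SE 0.14, adjusted p = 0.0195), with overlapping groups. Its call was lost after quantile normalization (0.0679) and without WT_CD3 replicate 4 or WT_CD3CD28 replicate 1 or 2 (adjusted p up to 0.0741).

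The exception in the complex was Qars, the glutamine enzyme. Its level was 10.39, 10.27, 10.52 and 10.41 in WT_CD3 and 10.47, 10.49, 10.45 and 10.14 in WT_CD3CD28. The groups overlapped fully, and the difference was -0.01 (95% interval -0.27 to 0.24), or 0.08 with each array centred on its median.

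Among the 11 free cytosolic members 7 were higher. Yars, for tyrosine, rose from 8.57, 8.45, 8.30 and 8.13 to 9.38, 9.51, 9.05 and 8.82, with no overlap and a difference of 0.83 (SE 0.18, adjusted p = 0.0018). Gars, the glycine enzyme of both compartments, rose from 11.21, 11.07, 11.08 and 10.81 to 11.79, 11.81, 11.52 and 11.68, a difference of 0.66 (SE 0.09, adjusted p = 5.2e-05). Both are clear of the anti-CD3 range on every array. Tars, for threonine, rose from 10.19, 10.09, 9.99 and 9.91 to 10.77, 10.79, 10.61 and 10.51, by 0.63 (SE 0.11). Hars, for histidine, rose by 0.49 (SE 0.11), Farsb, the beta subunit for phenylalanine, by 0.48 (SE 0.09), and Nars, for asparagine, by 0.40 (SE 0.09). All of these had groups apart. Cars, for cysteine, rose by 0.50 (SE 0.16, adjusted p = 0.025), a call that was lost when WT_CD3 replicate 3 or 4 or WT_CD3CD28 replicate 1 or 2 was left out (adjusted p up to 0.0965).

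The other 4 free cytosolic members were not called, and they spread widely with anti-CD28. Farsa, the alpha subunit that pairs with Farsb, read 9.45, 9.23, 9.08 and 9.06 in WT_CD3 and 9.86, 9.72, 9.45 and 8.54 in WT_CD3CD28, so 3 arrays were at or above the anti-CD3 range and replicate 4 was below it (0.19, 95% interval -0.41 to 0.78). Vars, for valine, read 9.44, 9.46, 9.32 and 9.09 against 10.16, 9.98, 10.06 and 9.17, so 3 arrays were above the anti-CD3 range and replicate 4 lay within it. It differed by 0.52 (adjusted p = 0.105), by the same amount with an adjusted p of 0.00588 with the replicate number as a block, and by 0.74 without WT_CD3CD28 replicate 4 (adjusted p = 0.0115). Wars, the tryptophan enzyme that interferon gamma induces in many cell types, differed by 0.17 (95% interval -0.29 to 0.63), while Ifng itself was higher by 0.69 (SE 0.21, adjusted p = 0.0205). The call of Ifng was lost without WT_CD3 replicate 2 or 3 or WT_CD3CD28 replicate 1 (adjusted p up to 0.0702). On the WT_CD3 arrays Ifng read 6.62 to 7.28, at the level of some B cell markers, so it may be near background there. Sars, for serine, differed by -0.12 (95% interval -0.50 to 0.25).

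The mitochondrial enzymes split. Yars2, for mitochondrial tyrosine, showed the largest difference of all 34 members: it read 9.24, 9.34, 9.64 and 9.17 in WT_CD3 and 10.48, 10.44, 10.04 and 10.69 in WT_CD3CD28, a log2 difference of 1.07 (SE 0.15, adjusted p = 4.33e-05), or 2.09-fold. Mars2, for mitochondrial methionine, rose from 7.36, 7.18, 7.39 and 7.60 to 8.10, 8.19, 7.96 and 7.94, by 0.66 (SE 0.10). Both had groups that stayed apart. Iars2 rose by 0.59 (SE 0.09), Rars2, for mitochondrial arginine, by 0.55 (SE 0.10), Nars2 by 0.46 (SE 0.11) and Lars2 by 0.41 (SE 0.11). The remaining 10 mitochondrial members lay between -0.10 (Vars2) and 0.22 (Pars2) and were not called. Among them Aars2, Pars2 and Ears2, and Vars2 on most arrays, read at the level of some B cell markers. Whether background limited their differences was not tested. Tars2, for mitochondrial threonine, read 8.76, 8.62, 8.57 and 8.62 against 8.64, 8.69, 8.69 and 8.35, a difference of -0.05 (95% interval -0.26 to 0.16). Its 95% interval excludes a rise as large as the 0.63 of its cytosolic counterpart Tars.

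**Figure D2:**
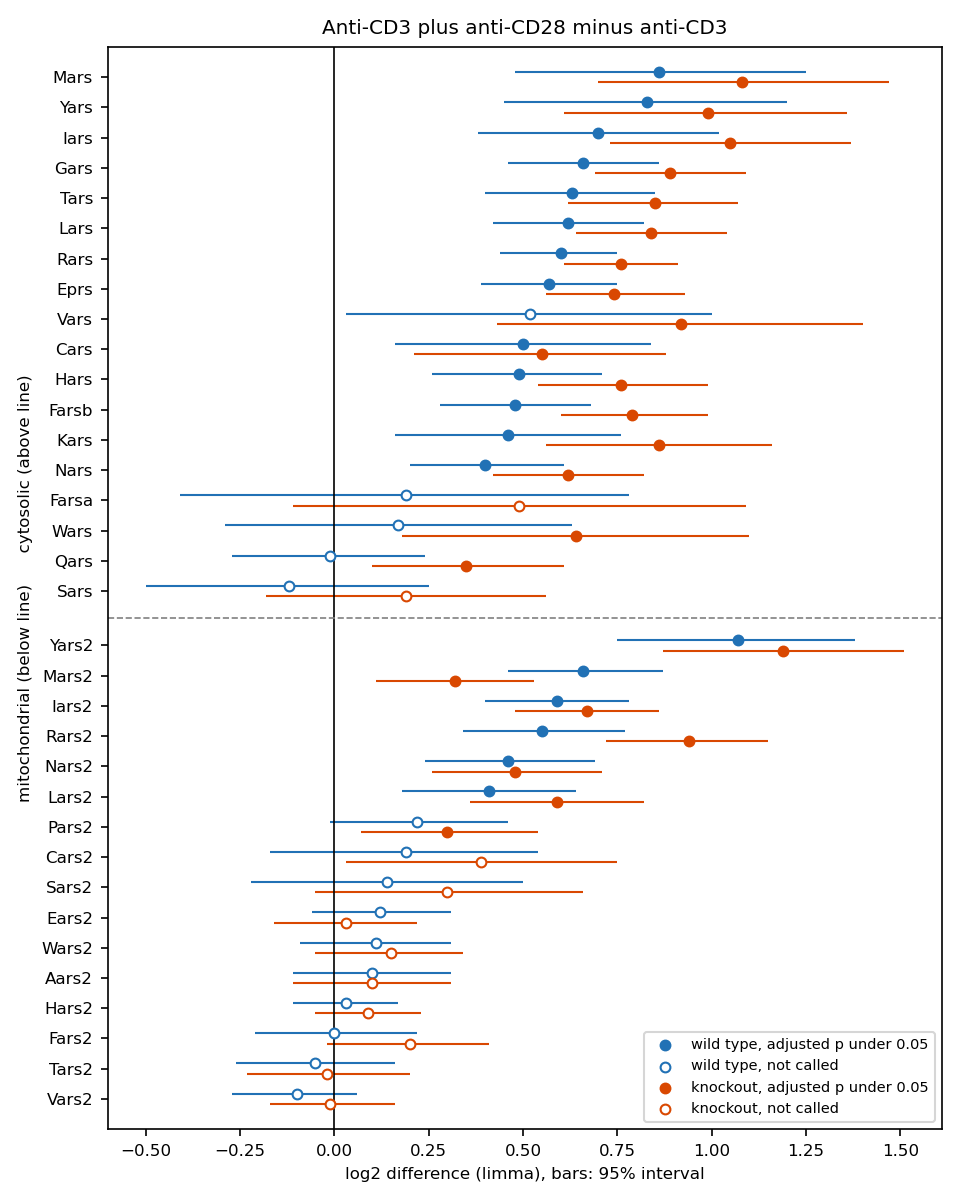
Log2 difference between anti-CD3 plus anti-CD28 and anti-CD3 for each of the 34 members (rows), in wild type (blue) and knockout (orange), with 95% intervals from limma; filled points passed an adjusted p under 0.05. The filled points number 19 in wild type and 23 in knockout, all to the right of 0, and Yars2 lies farthest right among the mitochondrial members.

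In knockout cells the same comparison gave 23 of 34 members higher and 0 lower, where 20.4% of all genes were higher and 17.6% lower. The median difference was 0.61, against -0.06 over all genes. Of the 18 cytosolic members 16 were higher, with all 7 measured enzymes of the complex among them, and of the 16 mitochondrial members 7. In 21 members the groups did not overlap, against 18.7% of all genes. Yars2 again led: it read 8.90, 8.78, 9.15 and 9.46 in KO_CD3 and 10.34, 10.35, 10.13 and 10.22 in KO_CD3CD28 (1.19, SE 0.15, adjusted p = 8.36e-06). Mars followed, with 8.87, 8.75, 8.68 and 8.22 against 10.07, 9.97, 9.39 and 9.43 (1.08, SE 0.18, adjusted p = 0.000152). In both members the groups stayed apart. Rars2 rose from 8.88, 8.69, 9.10 and 9.21 to 9.81, 9.83, 9.98 and 9.99. Iars rose by 1.05 (SE 0.15), Yars by 0.99 (SE 0.18), Rars2 by 0.94 (SE 0.10), Gars by 0.89 (SE 0.09), Kars by 0.86 (SE 0.14) and Tars by 0.85 (SE 0.11).

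The 19 members called in wild type were all called in knockout, and 4 were called in knockout alone. These were Qars (10.11, 9.96, 10.26 and 9.68 in KO_CD3 against 10.51, 10.47, 10.18 and 10.26 in KO_CD3CD28, 0.35, SE 0.12, adjusted p = 0.0273), Vars (0.92, SE 0.23, adjusted p = 0.00434), Wars (0.64, SE 0.22, adjusted p = 0.0268) and Pars2, for mitochondrial proline (0.30, SE 0.11, adjusted p = 0.0389). The call of Vars held whichever single array was left out, and the other calls did not. Qars was lost after quantile normalization (0.293) and without KO_CD3 replicate 2 or 4 or KO_CD3CD28 replicate 1 or 2 (adjusted p up to 0.098). Wars differed by 0.42 without KO_CD3 replicate 4, and its call was lost after quantile normalization (0.0758) and without KO_CD3 replicate 4 or KO_CD3CD28 replicate 1 or 2 (up to 0.0977). Pars2 was lost without any of KO_CD3 replicates 1 and 2 and KO_CD3CD28 replicates 1 to 4 (up to 0.128). The rise of Cars, 0.55 here, missed the threshold without KO_CD3CD28 replicate 1 (0.0511), and that of Mars2, 0.32, without KO_CD3 replicate 1 (0.0642).

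There were 11 members called in neither genotype: Farsa, Sars, Aars2, Cars2, Ears2, Fars2, Hars2, Sars2, Tars2, Vars2 and Wars2. With the replicate number as a block, 20 members were higher in wild type (Vars was added) and 27 in knockout, with Farsa (adjusted p = 0.0183), Cars2 (0.021), Fars2 (0.0449) and Sars2 (0.0436) added, where 18.8% and 23.3% of all genes were higher. Subtracting the median of each array shifted the genome-wide median by 0.13 in knockout and also gave 27 members there (26.1% of all genes were higher), with Cars2 (0.0384), Fars2 (0.0354), Hars2 (0.0103) and Wars2 (0.0248) added.

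The enzymes of both compartments for the same amino acid could be set side by side in 12 pairs. The cytosolic member had the larger CD28 difference in 9 of them in wild type and in 9 in knockout. Both members were called for isoleucine, leucine, methionine, asparagine, arginine and tyrosine in both genotypes. Threonine and valine gave the pairs furthest apart: Tars differed by 0.63 and 0.85 (wild type and knockout) and Tars2 by -0.05 and -0.02, and Vars by 0.52 (not called) and 0.92 and Vars2 by -0.10 and -0.01. Histidine was similar, with Hars at 0.49 and 0.76 and Hars2 at 0.03 and 0.09. Tyrosine ran the other way, with Yars2 (1.07 and 1.19) above Yars (0.83 and 0.99). For serine neither member was called: Sars differed by -0.12 and 0.19 and Sars2 by 0.14 and 0.30. Vars2 read at the level of some B cell markers on most arrays, and whether background limited its differences was not tested.

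Synthetases fall into 2 unrelated structural classes, by the fold of the catalytic domain. Of the class I members 11 of 18 were higher in wild type and 14 of 18 in knockout, and of class II 7 of 15 and 8 of 15; Eprs, which joins both classes in one chain, is counted in neither. Among mitochondrial members the split was 5 of 9 in class I against 1 of 7 in class II in wild type. Of the 11 measured cytosolic members that are commonly listed as ATF4 targets 9 were higher in wild type and 10 in knockout, against 4 and 6 of the 7 others. The 4 measured members with TGATGNAA near the start (Gars, Iars, Tars and Yars, whose sites are printed with the promoters) were all higher in both genotypes, with medians of 0.68 and 0.94. Of the 21 measured members with a sequence but no match 10 and 11 were higher (medians 0.19 and 0.39). All 4 with a match were cytosolic, whereas 14 of the 21 without were mitochondrial. This contrast therefore overlaps with that between compartments, and the part of each was not tested. Of the cytosolic members without a match Eprs, Farsb, Kars and Mars were higher in both genotypes, Qars in knockout alone, and Farsa and Sars in neither. Of the 4 with CACGTG 3 were higher in both genotypes (medians 0.55 and 0.82), and Ears2 was not called. Of the 21 measured members with a sequence but no CACGTG 11 and 12 were higher (medians 0.41 and 0.48). These are counts of few genes, and none of the differences between classes was tested.

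The level of the cytosolic members varied with the replicate number. In WT_CD3CD28 the mean of the 18 cytosolic members was 10.84 on replicates 1 and 2, 10.65 on replicate 3 and 10.43 on replicate 4. In KO_CD3CD28 it was 10.85, 10.77, 10.43 and 10.45. Replicate 4 was also the lowest array of both anti-CD3 groups (10.05 in WT_CD3 and 9.62 in KO_CD3), so these levels are not differences between stimuli. Restricted to replicates 1 and 2, 24 members were higher in wild type and 26 in knockout, where 21.1% and 25.6% of all genes were, and restricted to replicates 3 and 4, 14 and 16, where 8.85% and 11% were. With replicates 3 and 4 alone, and so with fewer arrays, the calls of Hars (0.38), Iars (0.68), Kars (0.36), Lars2 (0.31) and Nars2 (0.53) were lost in wild type, although the differences of Iars and Nars2 were close to or above those over all arrays (0.70 and 0.46). In knockout those of Qars (0.25), Vars (0.69), Wars (0.57), Lars2 (0.36), Mars2 (0.24), Nars2 (0.41) and Pars2 (0.11) were lost. The labels name no batch, and what separates the replicate numbers was not tested.

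**Figure D3:**
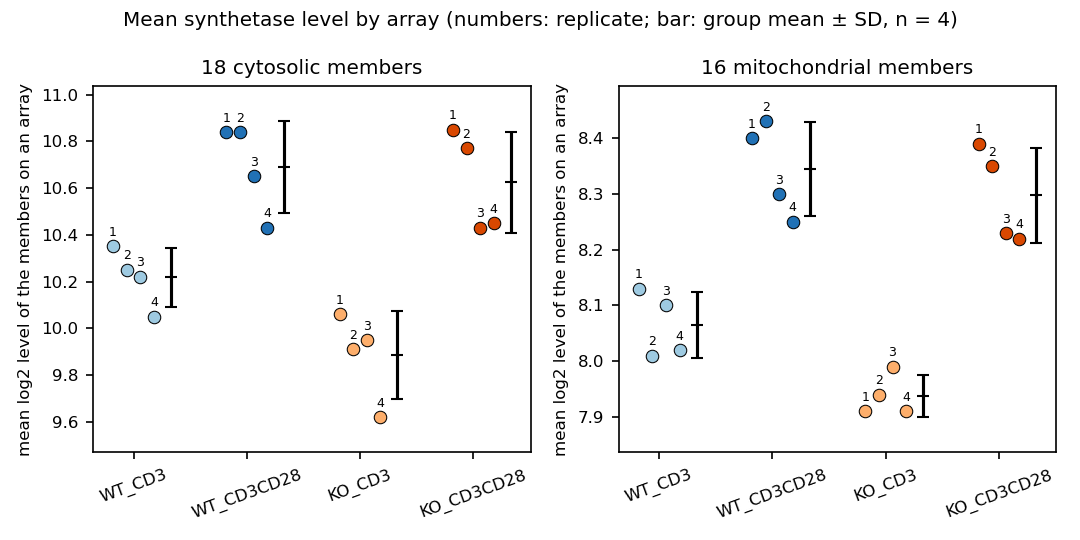
Mean log2 level of the 18 cytosolic (left) and 16 mitochondrial members (right) on each array, by group; the small numbers are replicate numbers and the bars show the mean and SD of 4 arrays. The cytosolic means ran from 10.05 to 10.35 in WT_CD3, 9.62 to 10.06 in KO_CD3, 10.43 to 10.84 in WT_CD3CD28 and 10.43 to 10.85 in KO_CD3CD28.

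Cell type markers moved with the stimulus too. The mean of the 9 T cell markers was 11.36 to 11.60 in WT_CD3 and 10.94 to 11.21 in WT_CD3CD28, and 11.30 to 11.50 and 11.02 to 11.12 in the knockout groups. The mean of 7 B cell markers was 6.33 to 6.41 in WT_CD3 and 5.86 to 6.11 in WT_CD3CD28 (3 of 6 tested were lower), with Ebf1 at or under the detection filter on all arrays, and that of 10 myeloid markers 6.45 to 6.57 and 6.19 to 6.26 (3 of 9 tested were lower). That of 7 CD8 and NK cell markers was 6.30 to 6.49 and 6.71 to 6.92 (4 of 4 tested were higher), with Ncr1, Klrb1c and Gzma at or under the filter on all arrays. Their part in the synthetase result was not tested.

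The genotype comparison under anti-CD3 asked whether synthetase levels depend on DEC1 without costimulation. No member passed the threshold (0 of 34, against 1.03% of all genes, 0.28% higher and 0.749% lower), and 17 members had an unadjusted p under 0.05, against 3987 of the 16427 genes. The direction was nearly uniform: 32 of 34 members were lower in knockout, where 44.6% of all genes were, with a median of -0.26 against 0.03 over all genes. All 18 cytosolic members were lower, from -0.13 (Cars) to -0.63 (Vars). The cytosolic members kept this sign after centring and after quantile normalization, and of the mitochondrial ones Hars2 turned to 0.02 after quantile normalization. The wild-type arrays used here also serve the CD28 comparison, and the knockout arrays likewise, so the larger CD28 differences in knockout are not separate evidence.

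Vars, for valine, differed most. It read 9.44, 9.46, 9.32 and 9.09 in WT_CD3 and 9.03, 8.74, 8.68 and 8.33 in KO_CD3, with no overlap, a difference of -0.63 (95% interval -1.12 to -0.15, adjusted p = 0.126). Wars read 9.60, 9.41, 9.30 and 9.05 against 9.12, 8.83, 8.97 and 8.08, so the groups overlapped by 1 array each (-0.59, SE 0.22, adjusted p = 0.13). Iars read 11.55, 11.46, 11.53 and 11.33 against 11.25, 11.13, 11.16 and 10.38, with no overlap (-0.49, SE 0.15, adjusted p = 0.0975). In 7 members, Farsb, Iars, Qars, Tars, Vars, Sars2 and Tars2, every knockout array was below every wild-type array, as in 6.63% of all genes.

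Same-numbered arrays deviated together in every comparison, and with the replicate number as a block 14 members passed as lower in knockout and 0 as higher, where 6.56% of all genes were lower and 5.34% higher. These were 12 cytosolic members, Farsb (adjusted p = 0.0496), Gars (0.0381), Iars (0.0247), Kars (0.0201), Mars (0.0261), Nars (0.0232), Qars (0.0286), Sars (0.0402), Tars (0.0264), Vars (0.0132), Wars (0.00972) and Yars (0.0478), and the mitochondrial Rars2 (0.0303) and Sars2 (0.0475). Several of these lie close to the threshold. Within replicate numbers, 20 of the 34 members were lower in knockout in all 4 pairs, and 1 was higher in all 4. In replicates 1, 2 and 4 Xist was high in only 1 of the genotypes, so neither the pairs nor the block match arrays for Xist. With replicates 1 and 2 alone 6 members passed (Farsb, Hars, Vars, Wars, Rars2 and Yars2, where 6.57% of all genes were lower), and with replicates 3 and 4 alone 0 did, as did 0 of all genes. Without KO_CD3 replicate 3, Qars passed without the block (adjusted p = 0.0456).

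A single array weighed on this comparison. KO_CD3 replicate 4 was the lowest of the 8 anti-CD3 arrays for 22 of the 34 members, and WT_CD3 replicate 1 was the highest for 22. Without KO_CD3 replicate 4 the difference went from -0.49 to -0.29 for Iars, from -0.59 to -0.36 for Wars, from -0.42 to -0.25 for Farsa and from -0.34 to -0.18 for Sars. The same-numbered WT_CD3 replicate 4, whose cytosolic mean of 10.05 was also the lowest of its group, stayed in these fits. The T cell marker mean on the anti-CD3 arrays was 11.36 to 11.60 in wild type and 11.30 to 11.50 in knockout, and the myeloid mean 6.45 to 6.57 and 6.48 to 6.83. The part of these in the result was not tested.

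Mars2 went against the family. It read 7.36, 7.18, 7.39 and 7.60 in WT_CD3 and 7.47, 7.77, 7.79 and 7.74 in KO_CD3, higher in each of the 4 replicate numbers, by 0.31 on average (SE 0.10, adjusted p = 0.0994, and 0.0549 with the block). The groups overlapped through WT_CD3 replicate 4 and KO_CD3 replicate 1. The only other member above 0 was Ears2, for mitochondrial glutamate, at 0.03, and it fell below 0 under both scaling alternatives.

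**Figure D4:**
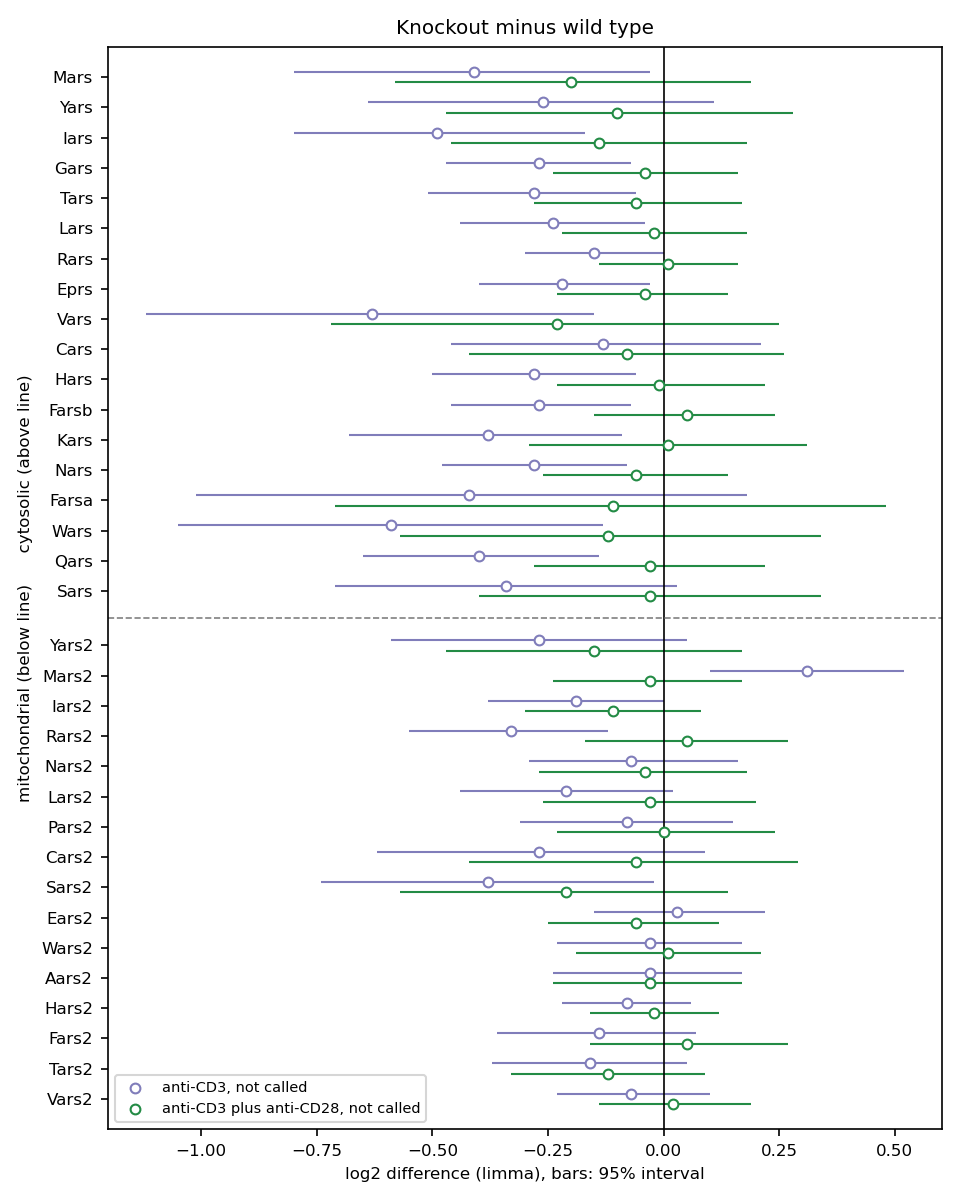
Log2 difference between knockout and wild type for each of the 34 members (rows), under anti-CD3 (purple) and under anti-CD3 plus anti-CD28 (green), with 95% intervals from limma; open points did not pass an adjusted p under 0.05. Under anti-CD3, 32 points lie left of 0 and Mars2 lies farthest right at 0.31, while under anti-CD3 plus anti-CD28 all points lie between -0.23 and 0.05.

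With costimulation the genotypes were closer. Again 0 of 34 members were called (0.00609% of all genes, which is 1 gene), 0 members had an unadjusted p under 0.05, against 545 genes, and the differences ran from -0.23 (Vars) to 0.05. The intervals differ in width: that of Rars, 0.01, spans -0.14 to 0.16, while that of Farsa, -0.11, spans -0.71 to 0.48. Yars2 read 10.48, 10.44, 10.04 and 10.69 in WT_CD3CD28 and 10.34, 10.35, 10.13 and 10.22 in KO_CD3CD28, and the groups overlapped. In 0 members were the groups apart in either direction, which was the case for 2.11% of all genes upward and 0.645% downward.

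Whether the CD28 response itself differed between genotypes was tested as an interaction. No member was called (0 of 34, and 0% of all genes), and 4 members had an unadjusted p under 0.05, against 867 of the 16427 genes: Rars2 (0.38, 95% interval 0.08 to 0.69), Qars (0.37, 0.01 to 0.72), Farsb (0.31, 0.04 to 0.59) and, in the opposite direction, Mars2 (-0.35, -0.64 to -0.05). The adjusted p was 0.905 for each. The estimate was above 0 for 31 of 34 members (Hars2 and Tars2 turned to -0.01 after quantile normalization), where 50.3% of all genes were, and for all 18 cytosolic ones. The largest was that of Wars, 0.47.

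**Figure D5:**
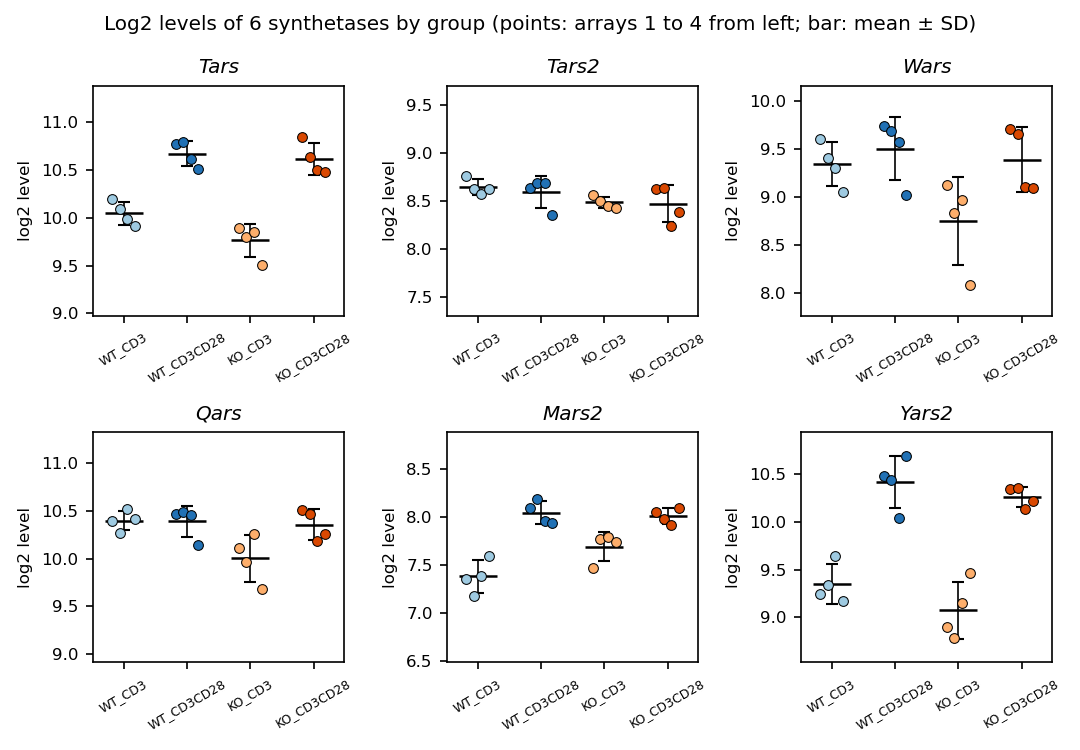
Log2 level of Tars, Tars2, Wars, Qars, Mars2 and Yars2 on each array by group, with replicates 1 to 4 from left to right and the mean and SD of 4 arrays; every panel spans the same number of log2 units. Yars2 and Tars are apart between stimuli in both genotypes, Tars2 is level, and KO_CD3 replicate 4 is the lowest array of Wars (8.08) and Qars (9.68).

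Genes that act beside the synthetases were taken from lists, and their counts are to be read against the 16% of all genes that were higher and 13% that were lower in wild type, and the 20.4% and 17.6% in knockout. The 3 scaffold proteins of the multi-synthetase complex were all higher in knockout cells with anti-CD28. Eef1e1 rose by 1.12 in wild type (SE 0.13, adjusted p = 6.77e-06) and by 1.46 in knockout (SE 0.13). Aimp2 rose by 0.67 (SE 0.24, adjusted p = 0.0475) and 1.30 (SE 0.24), although in wild type leaving out any of 12 arrays ended the call (adjusted p up to 0.141), as did quantile normalization (0.101), no filter (0.0531), the trended and robust variance (0.0542), the Xist term (0.057) and replicates 3 and 4 alone (0.412). Aimp1 differed by 0.35 in wild type (adjusted p = 0.0543, and 0.0436 with the block) and rose by 0.76 in knockout. Of the 9 measured scaffolds and accessory charging factors 5 were higher in wild type and 7 in knockout, with 0 lower, among them Qrsl1, which helps to make mitochondrial glutamine tRNA (0.66 and 0.61), and Sepsecs, which makes selenocysteine on its tRNA (0.69 and 0.61).

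Genes of the steps before charging were higher in part. Of 20 genes of tRNA maturation and export 12 were higher in wild type and 15 in knockout, with 0 lower. The RNase P and MRP subunit Rpp40 rose by 1.42 and 1.72 and the tRNA export receptor Xpot by 0.80 and 1.17. Of 36 tRNA modification genes 19 and 24 were higher and 0 lower, among them the dihydrouridine synthase Dus4l (1.11 and 1.33) and the pseudouridine synthase Pus7 (0.92 and 1.29). Of 20 genes of RNA polymerase III and its factors, which transcribe tRNA genes, 8 were higher and 2 lower in wild type and 14 higher and 3 lower in knockout. The repressor of that polymerase, Maf1, fell by 1.00 in wild type and by 0.94 in knockout. Of the 4 genes of separate proofreading enzymes 2 and 3 were higher, with Aarsd1, which clears mischarged alanine tRNA, at 0.92 and 1.28.

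Genes of translation beyond charging were also higher in part. Of 9 genes of cytosolic elongation and termination 4 were higher in wild type and 6 in knockout, and of 9 mitochondrial translation factors 4 and 7, with 0 lower in either list. Gfm1, the mitochondrial elongation factor, rose by 1.12 and 1.39. Of 26 genes of the ATF4 pathway 9 were higher and 2 lower in wild type and 13 and 2 in knockout, and the replicate block gave 12 higher and 5 lower in wild type. Mthfd2 of mitochondrial folate metabolism rose by 1.29 and 1.60. Atf4 itself differed by 0.18 in wild type (adjusted p = 0.389) and rose by 0.38 in knockout (adjusted p = 0.0431), a call that ended without any of 10 arrays (up to 0.145) and after quantile normalization (0.294). Of the 10 genes of the MYC network 1 was higher in each genotype, Myc itself (0.62 and 1.10), and 5 and 4 were lower, such as the MAX-binding repressor Mxd4 (-0.77 and -0.59). Of 14 genes of the interferon gamma response 2 were higher in each genotype, a share near that of all genes.

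Between genotypes under anti-CD3, 4 genes of these lists were called, where 1.03% of all genes were (0.749% lower). Cytosolic elongation (9 genes), RNA polymerase III (20), the MYC network (10) and the ATF4 pathway (26) each held 1, and the other lists 0. All 4 called genes were lower in knockout. These were Eif5a, which relieves stalled ribosomes (-0.71, SE 0.14, adjusted p = 0.0287), Gtf3a, which places RNA polymerase III on 5S RNA genes (-0.36, SE 0.08, adjusted p = 0.0383), Myc (-0.60, SE 0.13, adjusted p = 0.0421) and the serine synthesis enzyme Psat1 (-0.63, SE 0.14, adjusted p = 0.0473). Each call was lost when a single array was left out, namely any of 4 arrays for Eif5a (adjusted p up to 0.129), 10 for Gtf3a (0.148), 11 for Myc (0.141) and 12 for Psat1 (0.174). A term for high Xist ended all 4 calls (Eif5a 0.0562, Gtf3a 0.0694, Myc 0.0562 and Psat1 0.077), quantile normalization ended those of Gtf3a (0.0606), Myc (0.109) and Psat1 (0.0685), replicates 3 and 4 alone ended all 4 (0.182 to 0.199), replicates 1 and 2 alone that of Gtf3a (0.0706), the trended and robust variance that of Gtf3a (0.0537) and the lack of a filter that of Psat1 (0.0521). With replicates 3 and 4 alone 0 of all genes passed, so the loss of these calls there is not particular to them. The differences in that subset were -0.93 for Eif5a, -0.43 for Gtf3a, -0.63 for Myc and -0.68 for Psat1. With the replicate block all 4 genes passed (adjusted p = 0.00586, 0.0132, 0.00289 and 0.00501). The genes lower in knockout then numbered 7 of 20 for RNA polymerase III, 6 of 36 for tRNA modification and 6 of 26 for the ATF4 pathway. Maturation and export held 3 of 20, cytosolic elongation 2 of 9 and mitochondrial translation factors 2 of 9. The MYC network held 2 of 10, the interferon gamma response 2 of 14, the scaffold list 1 of 9 and proofreading 0 of 4. In each list 0 were higher, where 6.56% of all genes were lower and 5.34% higher with the block. The levels of the 4 called genes did not overlap between KO_CD3 and WT_CD3, as in 6.63% of all genes in this direction. Myc was 10.41 to 10.90 against 10.95 to 11.41 and Eif5a 9.92 to 10.38 against 10.70 to 11.01. The calls come from these same arrays, so the separation is not separate evidence. The scaffolds Eef1e1 (-0.34, adjusted p = 0.14), Aimp1 (-0.30, 0.182) and Aimp2 (-0.59, 0.161, and 0.0258 with the block) were not called.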

How the data were processed

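RNA of 16 samples was measured on Affymetrix arrays. The deposited values are log2 probe set signals, made by the authors with RMA per the submitters' processing notes (version not given in the sources used here). Of 35556 probe sets, 21789 carried 1 gene symbol. Those above the 25th percentile of their array on at least 4 arrays were kept, and each gene was read from its probe set of highest mean. Group means were fitted with limma 3.58.1 (R 4.3.3), and p-values were adjusted by Benjamini-Hochberg over 16427 genes. The number of arrays limits the precision. On simulated data 1.5-fold changes were recovered in 66% of genes for the CD28 effect in wild type and 68% for the genotype effect under anti-CD3, and 2-fold changes in 95% and 96%. There 100 genes changed by each fold and the arrays varied independently. In the data 4770 genes were called for the CD28 effect in wild type and same-numbered arrays varied together, so recovery may differ.

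Deviations of same-numbered samples from their group means correlated at 0.16 to 0.59 in every pair, so a fit with the replicate number as a block was also made. This rests on the data, since the labels give only the number. Other alternatives were scaling, filter, probe choice, variance model, array weights, an Xist term and subsets of arrays. The members, gene lists and tests were chosen with earlier results of these data known. Named genes were every measured member, the genes of each pathway list with the smallest p-values in the CD28 effect in wild type (3 a list) and in the genotype effect under anti-CD3 (2 a list), and 7 fixed genes. Promoter sequences are from RefSeq and matched 27 of 36 members by symbol.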

Additional observations from a re-analysis of the deposited data

Results flagged for a closer look

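In 12 of 136 groups of 4 arrays (34 members in 4 groups) the gap between 1 array and the others made up most of the range of the group. Such a gap can be small in log2 units, as for Hars2 in WT_CD3 (8.81 against 8.74 to 8.75). Chance alone would give about 5% of groups, but the members share the same 16 arrays and are not independent. WT_CD3CD28 replicate 4 held 4 of the 12, low for Qars (10.14), Cars2 (7.74), Fars2 (8.19) and Tars2 (8.35). In KO_CD3, replicate 4 was low for Iars (10.38) and high for Nars2 (8.27), replicate 1 was low for Mars2 (7.47) and Wars2 (7.40), and replicate 2 was high for Vars2 (7.55). In WT_CD3, replicate 4 was low for Mars (8.86) and replicate 1 high for Hars2 (8.81). KO_CD3CD28 replicate 1 was high for Pars2 (7.39). What sets these arrays apart was not tested.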

How the results depend on the processing

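In the tests of the 34 members no called difference changed direction under any alternative that was run. With the replicate number as a block, the genotype effect under anti-CD3 went from 169 to 1954 genes and from 0 to 14 members, and beside the calls given with the results the block changed no other member's call. That comparison also gave 261 genes after centring, 597 genes and 1 member with array weights (Rars2, adjusted p = 0.0346), 1388 genes and 6 members with replicates 1 and 2 alone, 0 genes with replicates 3 and 4 alone, and 46 genes with a term for Xist. With replicates 3 and 4 alone the CD28 effect gave 2650 genes in wild type (4770 with all arrays) and 2896 in knockout (6245). With replicates 1 and 2 alone the genotype effect with anti-CD28 gave 2 genes (1 with all arrays) and the interaction 80 (0 with all arrays). These subsets hold fewer arrays. Causes of the other changes were not tested.

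Leaving out 1 array gave, for CD28 in wild-type cells, 3947 to 5053 genes and 17 to 20 members, 5171 to 6541 and 19 to 24 in knockout, and 7 (without WT_CD3 replicate 3) to 452 genes (without KO_CD3 replicate 3) and 0 to 1 members for the genotype effect under anti-CD3. The genotype effect with anti-CD28 stayed at 1 gene and 0 members, and the interaction at 0 and 0. Without WT_CD3CD28 replicate 4, Cars2 was called in knockout (adjusted p = 0.036). Centring moved the share of higher calls among all calls from 55.1% to 69.3% in wild type, from 53.8% to 75% in knockout and from 27.2% to 4.98% between genotypes under anti-CD3.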
